A study of Mus musculus with 17 samples.

Results

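Interferons signal to the nucleus by a short route, and 9 genes of that route were examined in the kidneys of control mice and of db/db mice with and without dapagliflozin: the interferon-gamma receptor chains Ifngr1 and Ifngr2, the kinase Jak2, the transcription factors Stat2, Irf1, Irf8 and Irf9, and the suppressors Socs1 and Socs3. They were taken by gene symbol, and all 9 had a row among the 22558 genes used. Interferon-gamma binds a receptor of IFNGR1 and IFNGR2 chains, JAK1 and JAK2 are switched on, and phosphorylated STAT proteins bind GAS elements in genes such as Irf1. Type I and type III interferons act through other receptors and through ISGF3, a complex that includes STAT2 and IRF9 and binds the interferon-stimulated response element (ISRE). SOCS1 and SOCS3 close the loop by blocking the kinases, and SOCS3 is also a target and a brake of STAT3 downstream of the IL-6 family and of the leptin receptor.

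Whole-kidney RNA was sequenced from 17 male mice. The Ctrl group held 5 C57BL/6 mice and the Case group 6 db/db mice (BKS.Cg-Dock7m +/+ Leprdb/J), which become obese and diabetic, and both received saline. The Dapa group held 6 db/db mice given dapagliflozin, an inhibitor of the renal glucose transporter SGLT2, by gavage at 1.0 mg/kg per day. Treatment began at 8 weeks of age and lasted 6 weeks. The db/db mice lack a working long form of the leptin receptor in every cell, and that receptor itself signals through JAK2, STAT3 and SOCS3. The controls were of another strain, so that genotype and strain background cannot be told apart. In whole kidney, more cells of a type and more RNA per cell cannot be told apart either.

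The libraries held 13039535 to 17779635 counts, with 17.9% to 20.42% of them on mitochondrial genes in Ctrl, 19.83% to 27.27% in Case and 19.72% to 27.64% in Dapa. Markers of kidney epithelium were abundant in every mouse, with a summed FPKM (fragments per kilobase scaled to library size, a level per transcript length) over 12 genes of 2470 to 4095. Of these 12, 4 rose and 2 fell in Case against Ctrl, and 5 rose and 3 fell in Dapa against Ctrl, beside 13.0% and 29.1% of all genes called in either direction, among them Calb1, a marker of the distal tubule (log2 fold changes 1.55, q = 0.00347 and 1.62, q = 0.000205), and Lrp2, the proximal tubule receptor megalin (-0.98, q = 0.00407 and -1.25, q = 0.000557). The part of this shift in the levels of the regulators was not tested. In 7 libraries (3 Ctrl, 1 Case and 3 Dapa), 3 genes outside the pathway had FPKM values that did not match their counts, and these libraries were treated as a possible batch. Lepr, the leptin receptor gene, was at 0.464 to 1.93 FPKM in Ctrl, 0.659 to 5.40 in Case and 0.417 to 4.85 in Dapa (log2 fold change 1.27, q = 0.11 in Case against Ctrl, and 1.28, q = 0.0737 in Dapa against Ctrl). The db allele changes the splicing of Lepr, so that a count of the whole gene does not check the genotype. Counts were compared with edgeR's quasi-likelihood test over all genes, and a gene was called at a Benjamini-Hochberg adjusted p (q) under 0.05.

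Some promoters of the regulators hold the letters of these elements. In RefSeq windows (GRCm38.p6) of the 250 bases before each RefSeq transcript start, 12 windows for the 9 genes, GAS (TTCNNNGAA, the same on both strands) occurred for Irf1, Irf8 and Socs3, and the ISRE core (GAAANNGAA on either strand) for Stat2 and Socs1. Of all 32851 windows, 7.02% held a GAS match and 7.13% an ISRE core match. No match lay in the windows of Irf9, Jak2, Ifngr1 and Ifngr2, which says only that these letters are not there. Of the 12 windows, 7 lay before the gene span that the deposited table gives, while both windows of Irf9, that of Socs3 and the second windows of Irf1 and Irf8 lay inside it, so these 5 say nothing of the sequence before the span. The matches, which are letters and not measured binding, are shown in capitals with their surroundings, 5′ to 3′ on the strand of the gene, so that the windows of the transcription factors can be compared with those of the suppressors.
Irf1 GAS, chr11:53769894-53769962, plus strand: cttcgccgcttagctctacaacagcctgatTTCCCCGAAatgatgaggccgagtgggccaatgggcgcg
Irf8 GAS, chr8:120736157-120736243, plus strand: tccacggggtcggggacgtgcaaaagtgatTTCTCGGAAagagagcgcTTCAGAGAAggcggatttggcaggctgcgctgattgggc
Stat2 ISRE core, chr10:128270248-128270315, plus strand: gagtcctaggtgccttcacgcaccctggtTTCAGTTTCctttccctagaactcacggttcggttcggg
Socs1 ISRE core, chr16:10785575-10785649, minus strand: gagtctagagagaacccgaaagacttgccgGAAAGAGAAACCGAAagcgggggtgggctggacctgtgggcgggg
Socs3 GAS, chr11:117969482-117969550, minus strand: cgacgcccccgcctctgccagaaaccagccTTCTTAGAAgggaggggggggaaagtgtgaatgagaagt
The Irf1 match began 90 bases before the RefSeq start, those of Irf8 171 and 153 bases before it, that of Stat2 221 bases before it, the overlapping pair of Socs1 83 and 77 bases before it and that of Socs3 154 bases before it, inside the gene span of the table.

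In the healthy kidney the receptor and its kinase were the most abundant of the regulators. On the FPKM scale, mean levels in Ctrl were 9.46 ± 0.82 (SD, n = 5) for Jak2, 6.29 ± 0.45 for Ifngr1, 5.98 ± 0.67 for Ifngr2, 4.40 ± 0.44 for Stat2, 2.34 ± 0.22 for Irf9, 1.59 ± 0.18 for Irf8, 1.58 ± 0.58 for Irf1, 0.571 ± 0.185 for Socs3 and 0.395 ± 0.268 for Socs1. Neighbours in that order overlapped widely between mice for Ifngr1 with Ifngr2, for Irf8 with Irf1, and for Socs3 with Socs1. In Case the means were raised by the highest mice, so that Stat2 reached a mean of 10.4 ± 6.6 (SD, n = 6) beside 9.25 ± 1.07 for Jak2, and Irf1 reached 6.89 ± 5.95 beside 6.68 ± 1.18 for Ifngr1. By the medians of Case, Jak2 (8.96) still stood above Stat2 (7.91), and Ifngr1 (6.40) above Irf1 (4.84). In Dapa the mean levels of Jak2 (10.05), Ifngr1 (8.19), Ifngr2 (6.68) and Stat2 (6.57) stood in the order of Ctrl, while by medians Stat2 (6.85) stood above Ifngr2 (6.66), and Irf1 was at a mean of 1.88 ± 0.34 (SD, n = 6).

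**Figure D1:**
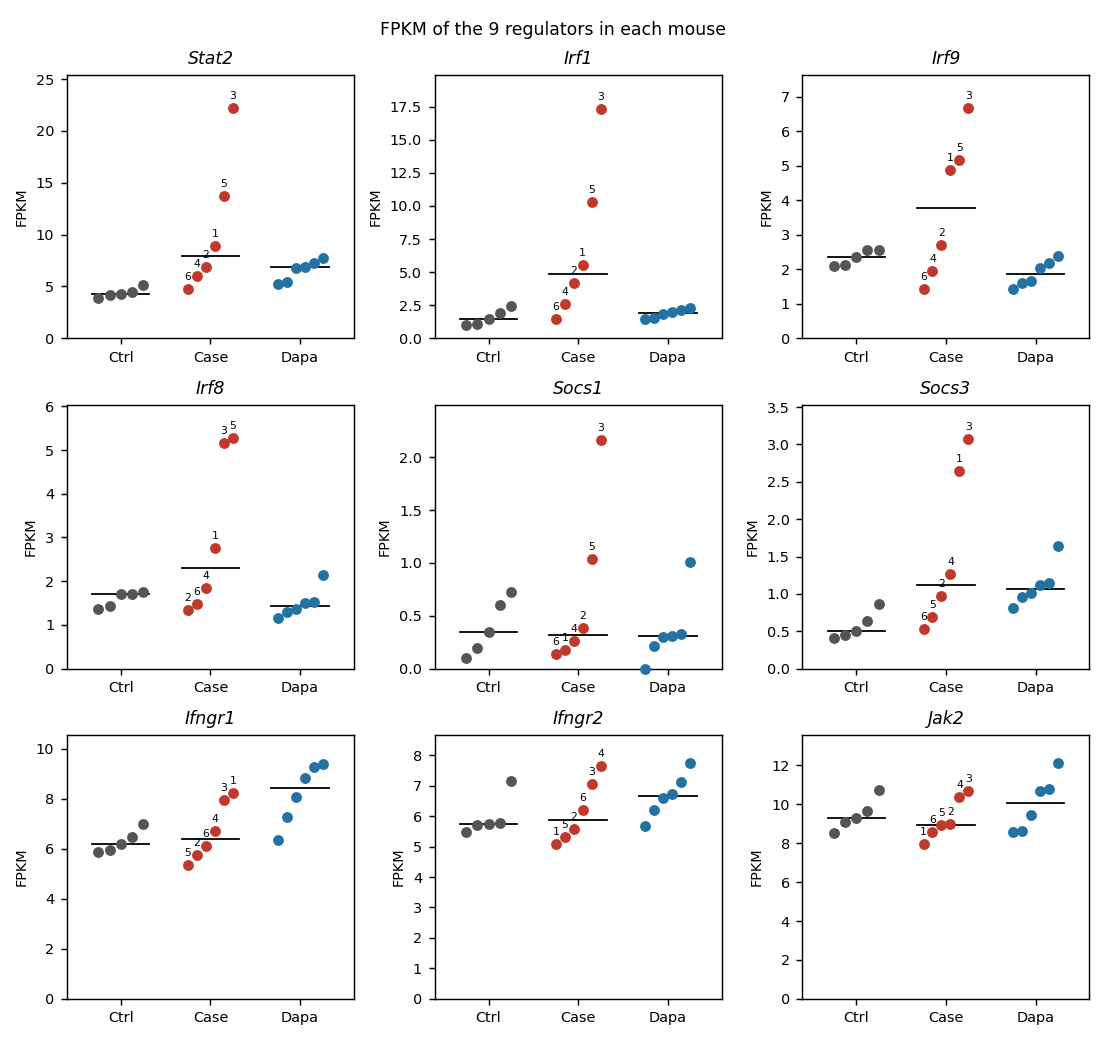
FPKM of each regulator (vertical axes, linear and starting at 0) in every Ctrl, Case and Dapa mouse; each point is 1 mouse, horizontal lines are group medians, and numbers mark the Case mice. Stat2, Irf1, Irf8, Irf9, Socs1 and Socs3 spread upward in Case, led by mouse 3, or for Irf8 by mouse 5, while Ifngr1, Ifngr2 and Jak2 kept to a narrow range in Ctrl and Case.

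The transcription factors Irf1 and Stat2 rose in diabetic kidneys. In Case against Ctrl they passed the test, which is 2 of the 8 regulators tested, beside 13.0% of all 14582 genes tested. Both also had mean FPKM values more than 2-fold apart, as 3.79% of all genes did together with the q. At an unadjusted p under 0.05 stood 4 of the 8, all higher in Case (Irf1, Stat2, Socs3 and Irf8), beside 28.7% of all genes. The median log2 fold change was 0.70 over the 8 regulators and 0.03 over all genes. No regulator separated Case from Ctrl without overlap in FPKM, as 8.43% of all genes did.

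Irf1 (ENSMUSG00000018899, mm10 chromosome 11, 53770014 to 53778374) encodes the factor that carries the interferon-gamma signal on to antigen presentation and guanylate-binding protein genes. Its FPKM in Ctrl was 2.41, 1.46, 1.01, 1.12 and 1.90. In Case it was 17.3 in mouse 3, 10.3 in mouse 5, 5.51 in mouse 1, 4.18 in mouse 2, 2.62 in mouse 4 and 1.45 in mouse 6. Thus 5 of 6 diabetic mice stood above every Ctrl mouse, and 1 lay among them. The log2 fold change was 2.00 (SE 0.53, 95% interval 0.86 to 3.15, q = 0.0277), or 4.36-fold between mean FPKM values.

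Stat2 (ENSMUSG00000040033, chromosome 10, 128270576 to 128292849) encodes the subunit that gives ISGF3 its activation domain. Ctrl mice had 5.11, 4.20, 3.94, 4.49 and 4.28 FPKM, and Case mice 22.2, 13.7, 8.92, 6.90, 5.97 and 4.72 in the order 3, 5, 1, 2, 4 and 6. Again 5 of 6 lay above every Ctrl mouse. The log2 fold change was 1.14 (SE 0.32, 95% interval 0.44 to 1.84, q = 0.0375), or 2.36-fold between mean FPKM values.

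Both calls depended on the mice included. Without Case mice 3 and 5, a comparison added after seeing the data and chosen because these mice were the highest in these genes, the log2 fold change of Irf1 was 1.03 (q = 0.080) and that of Stat2 0.51 (q = 0.054), and no regulator was called. Irf1 lost its call without Ctrl mouse 2, 3, 4 or 5 (log2 fold change 1.88 to 2.05, q = 0.0539 to 0.0740), and Stat2 without any 1 of the Ctrl mice (1.10 to 1.21, q = 0.0604 to 0.0881) or without Case mouse 5 (1.02, q = 0.0599). With a term for the possible batch the log2 fold change was 1.91 (SE 0.62, q = 0.0778) for Irf1 and 1.12 (SE 0.39, q = 0.0947) for Stat2; among the libraries without the mismatch (5 Case, 2 Ctrl) the log2 fold changes were 1.98 (q = 0.295) and 1.23 (q = 0.301), and the other libraries held only 1 Case mouse.

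Irf9 and Irf8 leaned the same way without passing. Irf9 (ENSMUSG00000002325, chromosome 14, 55603571 to 55610030), the DNA-reading subunit of ISGF3, had 2.13, 2.10, 2.55, 2.35 and 2.55 FPKM in Ctrl. In Case it had 6.68, 5.15 and 4.88 in mice 3, 5 and 1, but 2.69, 1.94 and 1.44 in mice 2, 4 and 6, so that 4 mice lay above every Ctrl mouse and 2 below every Ctrl mouse (log2 fold change 0.60, 95% interval -0.08 to 1.29, q = 0.231). Irf8 (ENSMUSG00000041515, chromosome 8, 120736358 to 120756694), a factor of macrophages and dendritic cells, had 1.75, 1.71, 1.36, 1.71 and 1.43 FPKM in Ctrl. Case mice had 5.28 (mouse 5), 5.16 (mouse 3), 2.76, 1.84, 1.47 and 1.33, a log2 fold change of 0.80 (95% interval 0.07 to 1.54, q = 0.138). Without Case mice 3 and 5 the log2 fold changes were 0.15 for Irf9 and 0.14 for Irf8.

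The diabetic mice took nearly the same order in each of these genes. Stat2, Irf1 and Irf9 ranked the 6 Case mice identically (3, 5, 1, 2, 4, 6), and 121 of the 14582 genes tested (0.830%) held that order. Irf8 exchanged mice 3 and 5 and placed mouse 2 last. Counting the regulators above every Ctrl mouse gave 7 of 9 in mouse 3, 6 in mouse 1, 5 in mouse 4, 5 in mouse 5, 4 in mouse 2 and 0 in mouse 6, beside 25.1% (mouse 6) to 44.2% (mouse 3) of all genes tested. Below every Ctrl mouse stood 2 regulators in mouse 1 (Jak2 and Ifngr2), 2 in mouse 2 (Irf8 and Ifngr1), 2 in mouse 5 (Ifngr1 and Ifngr2), 1 each in mice 4 and 6 (Irf9) and 0 in mouse 3, beside 15.2% to 28.1% of all genes. Mouse 6 was thus a db/db mouse whose interferon regulators all lay within the Ctrl range or, for Irf9, below it. Its library also had the highest mitochondrial share of Case (27.27%) and the 28.1% of genes below every Ctrl mouse. The part of this in its levels was not tested.

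**Figure D2:**
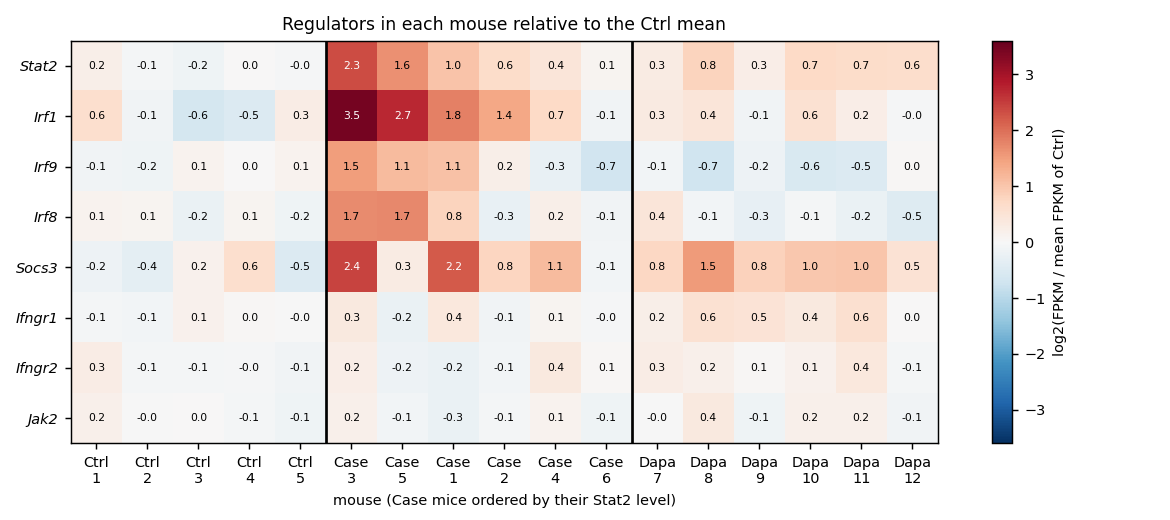
Colour and number give log2 of FPKM over the Ctrl mean for 8 regulators (rows) in each of the 17 mice (columns, Case mice ordered by Stat2; Socs1, with a mouse at 0, is not drawn). Stat2, Irf1 and Irf9 fall from left to right across the Case mice. Stat2, Socs3 and Ifngr1 stay above 0 in all 6 Dapa mice, Ifngr1 only just in mouse 12.

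Deviations from the group means over the 17 mice, on a log2 CPM scale, showed the same set moving together. The correlation was 0.93 between Stat2 and Irf1, 0.75 between Stat2 and Irf9, and 0.80 between Irf1 and Irf8 (0.86, 0.56 and 0.63 without Case mice 3 and 5), while Ifngr2 and Irf9 gave -0.45. Ifngr2 and Jak2 gave 0.74 with and without those mice, and Ifngr1 and Socs3 0.70 and 0.63. These coefficients describe libraries that share their depth and composition, and carry no test. The genes most like Stat2, among those expressed at a mean of 1 FPKM or more, were Gbp9 (0.96), Parp12 (0.94) and Cd274 (0.93). For Irf1 they were Gbp9 (0.92), Ifi47 (0.90) and Gbp4 (0.90), for Irf9 they included Tgtp2 (0.95) and BC023105 (0.93), and for Irf8 they were Tmem140 (0.91), Mapkapk2 (0.90) and Parp9 (0.90). For Jak2 they were Traf6, B630005N14Rik and Aldh1a2 (0.79 to 0.80), for Ifngr1 Apoc1, Calr and Apoe (0.80 to 0.81), and for Ifngr2 Vps4a, Tmem192 and Mlf2 (0.73 to 0.78).

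The suppressors had the lowest mean levels of the regulators in Ctrl. Socs3 (ENSMUSG00000053113, chromosome 11, 117966079 to 117970047) had 0.506, 0.445, 0.634, 0.864 and 0.405 FPKM in Ctrl. Case mice had 3.08 (mouse 3), 2.65 (mouse 1), 1.26 (mouse 4), 0.969 (mouse 2), 0.694 (mouse 5) and 0.530 (mouse 6), and 4 of the 6 stood above every Ctrl mouse. The log2 fold change was 1.32 (SE 0.44, 95% interval 0.38 to 2.26, q = 0.0636) and missed the threshold, which it passed with DESeq2 (q = 0.0171), with edgeR's exact test (q = 0.0278), with all 3 groups in one fit (q = 0.032) and with a term for the possible batch (q = 0.0378). Its q was also under 0.05 without Case mouse 5 (0.0392) or 6 (0.0354). Its order of mice differed from that of Stat2, Irf1 and Irf9, in which mouse 5 came next after mouse 3, for mouse 5 stood behind mice 1, 4 and 2 in Socs3. The genes most like Socs3 were Apoe (0.90), Laptm4a (0.89) and Lrg1 (0.87).

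Socs1 (ENSMUSG00000038037, chromosome 16, 10783808 to 10785536) was scarce. Its counts were 12, 7, 2, 4 and 14 in Ctrl, 43, 20, 7, 5, 3 and 3 in Case (mice 3, 5, 2, 4, 1 and 6), and 16, 6, 6, 5, 4 and 0 in Dapa. It did not pass the filter on low counts in any of the 3 comparisons. Without a filter the log2 fold change in Case against Ctrl was 0.68 (95% interval -0.84 to 2.21, q = 0.583). Mice 3 and 5, highest in Stat2 and Irf1, were also the 2 Case mice above every Ctrl mouse in Socs1. Its closest genes were Tubb5, Ipo13 and Sh2b1 (0.79 to 0.80), a likeness that rests on these few reads.

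The receptor chains and Jak2 did not pass the test in Case, and the sign of their small log2 fold changes turned in 12 (Ifngr1), 4 (Ifngr2) and 1 (Jak2) of 25 alternatives. Ifngr1 (ENSMUSG00000020009, chromosome 10, 19591949 to 19610229) had 5.95, 5.88, 6.98, 6.45 and 6.20 FPKM in Ctrl and 5.36 to 8.24 in Case (median 6.40), a log2 fold change of 0.0042 with a 95% interval of -0.24 to 0.25. Ifngr2 (ENSMUSG00000022965, chromosome 16, 91547072 to 91565169) had 7.15, 5.71, 5.75, 5.79 and 5.49 in Ctrl and 5.07 to 7.65 in Case (median 5.88), a log2 fold change of -0.04 (95% interval -0.32 to 0.23). Jak2 (ENSMUSG00000024789, chromosome 19, 29251828 to 29313080) had 10.8, 9.32, 9.64, 9.07 and 8.54 in Ctrl and 7.95 to 10.7 in Case (median 8.96), a log2 fold change of -0.12 (95% interval -0.32 to 0.09). The intervals of these 3 genes spanned 0, whereas those of Irf1 and Stat2 began at 0.86 and 0.44. The 2 Case mice with the highest Irf1 and Stat2 lay apart in Ifngr1, at 7.95 in mouse 3 and 5.36, the lowest of all 17 mice, in mouse 5.

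**Figure D3:**
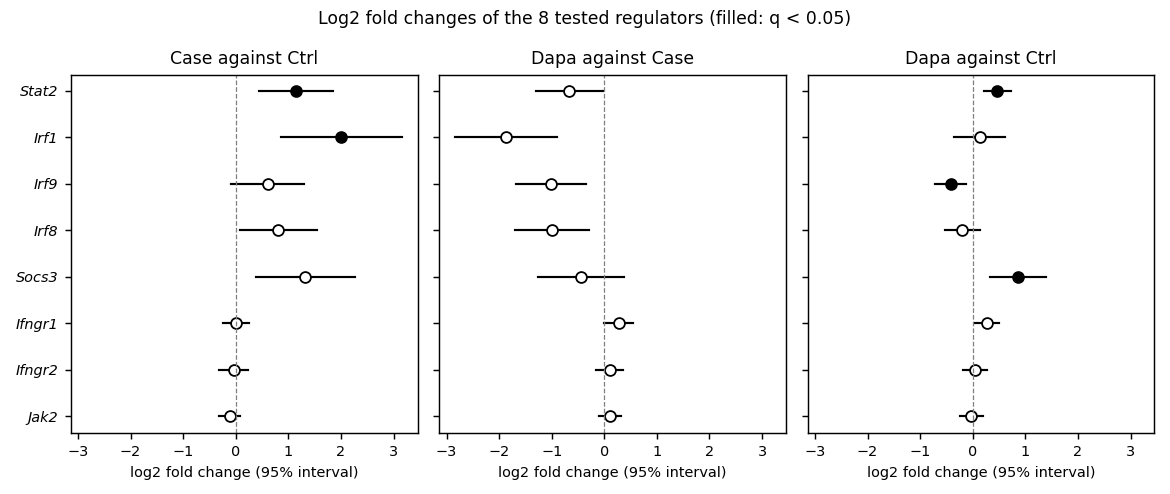
Log2 fold changes (points) with 95% intervals (lines) of the 8 tested regulators in the 3 comparisons, from edgeR; filled points have a q under 0.05. Irf1 and Stat2 are filled in Case against Ctrl, none is filled in Dapa against Case, and Stat2, Irf9 and Socs3 are filled in Dapa against Ctrl, Irf9 to the left of 0.

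No regulator passed the test in the treated mice against the untreated ones. In Dapa against Case the share of genes called was 0.0% of 14573, and 1880 genes (12.9%) had an unadjusted p under 0.05. Of the 8 regulators 5 were among these, 4 lower and 1 higher in Dapa. Irf1 was lower (log2 fold change -1.86, 95% interval -2.84 to -0.89, q = 0.194), as were Irf9 (-1.01, q = 0.237), Irf8 (-0.995, q = 0.253) and Stat2 (-0.66, q = 0.369), and Ifngr1 was higher (0.28, q = 0.384). DESeq2 and edgeR's exact test called Irf1 (q = 0.0255 and 0.0101), 1 of the 202 and 125 genes they called. The FPKM of Irf1 in Dapa ran from 1.44 to 2.33 (median 1.92), a range that lay within that of Ctrl, and 5 of the 6 Case mice were above it.

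Case mice 3 and 5 were left out together because they were the highest in these genes, so that smaller differences follow from the choice. Without them, Irf1 differed by -0.90 (q = 0.265), Irf9 by -0.56 (q = 0.409), Irf8 by -0.35 (q = 0.499) and Stat2 by -0.05 (q = 0.918). No regulator separated Dapa from Case without overlap, as 0.48% of all genes did. For Socs3 the difference was -0.45 (95% interval -1.27 to 0.37), for Jak2 0.10 (-0.11 to 0.31) and for Ifngr2 0.10 (-0.15 to 0.35). Socs1, without a filter, gave -0.95 (q = 0.593).

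Treated diabetic mice differed from Ctrl in 3 regulators. In Dapa against Ctrl these 3 of the 8 passed the test, a share not far above the 29.1% of all 14647 genes. Stat2 and Socs3 rose and Irf9 fell. None of the 3 differed more than 2-fold in mean FPKM, as 7.18% of all genes did together with the q. The median over the 8 was 0.09, and over all genes 0.02. The comparison shares its Dapa mice with the one above and its Ctrl mice with the first.

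Stat2 was 5.24 to 7.74 FPKM in Dapa (median 6.85), and all 6 mice stood above all 5 Ctrl mice, whose highest was 5.11. It was the 1 regulator of the 9 whose groups did not overlap, a share below the 14.5% of all genes. The log2 fold change was 0.47 (SE 0.12, 95% interval 0.21 to 0.72, q = 0.0106), and it kept a q under 0.05 in 22 of 24 alternatives. It was 0.50 (q = 0.0399) among the 6 libraries with the mismatch and 0.45 (q = 0.257) among the other 5. Socs3 was 0.816 to 1.64 FPKM in Dapa (median 1.07), with 5 of 6 mice above every Ctrl mouse and a log2 fold change of 0.86 (SE 0.25, 95% interval 0.33 to 1.40, q = 0.0211). It was 0.50 (q = 0.293) with the mismatch and 1.42 (q = 0.118) without it, and missed the threshold without Ctrl mouse 2 (q = 0.0516) or 5 (q = 0.0538).

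Irf9 was 1.43 to 2.39 FPKM in Dapa (median 1.85), and 4 of 6 mice lay below every Ctrl mouse. The log2 fold change was -0.42 (SE 0.14, 95% interval -0.71 to -0.12, q = 0.0375). This call was lost without any 1 of the 5 Ctrl mice (q = 0.0515 to 0.0957) or without Dapa mouse 8, 10 or 11 (q = 0.065 to 0.080), and among the libraries with the mismatch (-0.44, q = 0.121) and among those without it (-0.38, q = 0.395). In all, its q stayed under 0.05 in 9 of 24 alternatives. With all 3 groups in one fit, which takes the spread of the Case mice into the error, none of the 3 passed (q = 0.235 for Stat2, 0.11 for Socs3 and 0.294 for Irf9).

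Stat2 and Irf9, partners in ISGF3, passed the test in opposite directions in Dapa. The ratio of their FPKM values was chosen after the values were seen and is given without a test. Ctrl mice had ratios from 1.54 to 2.40 around a median of 1.91. The median of Case was 2.88 (1.83 to 3.32), and that of Dapa 3.49 (2.50 to 5.40). All 6 Dapa mice and 5 of 6 Case mice (all but mouse 1) had more Stat2 per Irf9 than any Ctrl mouse. Stat2 alone already set all 6 Dapa mice above every Ctrl mouse, so in Dapa this follows largely from the choice of genes. How many other gene pairs separate the groups as well was not counted.

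**Figure D4:**
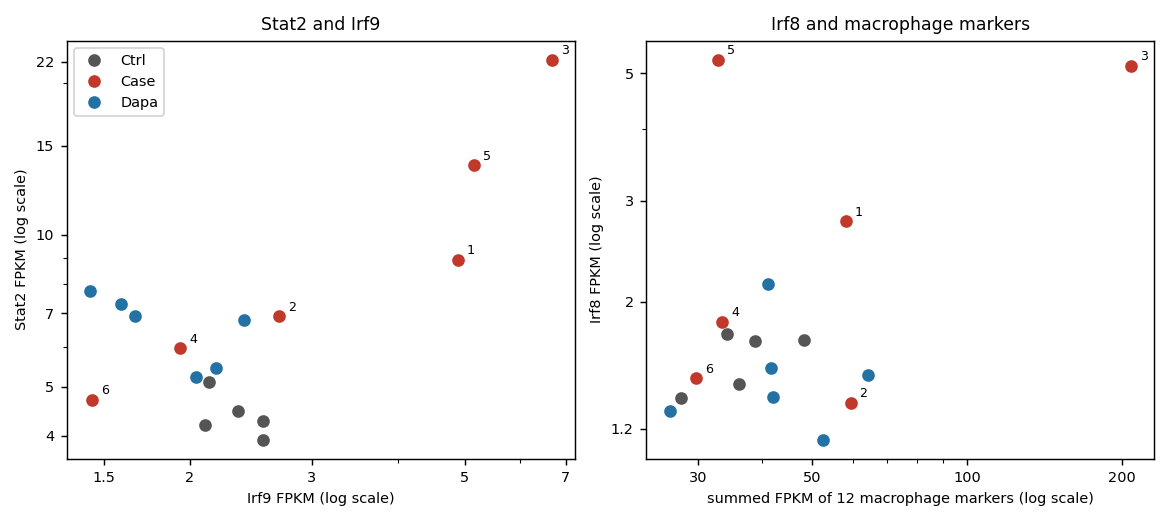
Left, FPKM of Stat2 against Irf9; right, FPKM of Irf8 against the summed FPKM of 12 macrophage markers; 1 point per mouse, log scales on all axes, Case mice numbered. On the left the 6 Dapa mice sit above the Ctrl mice in Stat2, 4 of them at lower Irf9 than every Ctrl mouse; on the right Case mice 3 and 5 share a high Irf8 at macrophage sums of 209 and 32.7.

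Irf1 and Irf8 in Dapa were not told apart from Ctrl. Their log2 fold changes were 0.13 (95% interval -0.35 to 0.62, q = 0.690) and -0.20 (-0.53 to 0.13, q = 0.351). The receptor chain Ifngr1 was 6.35 to 9.39 FPKM in Dapa (median 8.44), with 5 of 6 mice above every Ctrl mouse, and its log2 fold change of 0.27 (95% interval 0.04 to 0.51, q = 0.0713) missed the threshold, which it passed in 6 of 24 alternatives. Ifngr2 (0.05, -0.18 to 0.28) and Jak2 (-0.03, -0.25 to 0.20) did not pass the test, and the sign turned in 9 of 24 alternatives for Jak2, upper quartile scaling among them (0.016), and in 1 of 24 for Ifngr2.

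Few of the other genes of the pathway passed the test in Case. Of a list of 44 further ligands, receptor chains, kinases, STATs, IRFs and suppressors, 35 had a row and 33 were tested. In Case against Ctrl 3 rose and 2 fell, a share of the list close to the 13.0% of all genes, with a median log2 fold change of -0.02. Among them, Stat3, the STAT of the IL-6 family and leptin, rose on the log2 scale by 0.76 (q = 0.0202), and Ifnlr1, the type III interferon receptor chain, by 0.74 (q = 0.0408). Irf5, a factor of Toll-like receptor signalling, fell by 0.80 (q = 0.0387) and Socs7 by 0.40 (q = 0.0134).

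The remaining kinases and the type I receptor did not pass. In Case against Ctrl the log2 fold changes were -0.21 for Jak1 (q = 0.122), -0.14 for Tyk2 (q = 0.481), 0.93 for Jak3 (95% interval 0.28 to 1.59, q = 0.0604), 0.0042 for Ifnar1 (95% interval -0.14 to 0.15) and 0.16 for Ifnar2 (q = 0.279). Irf7, which amplifies type I interferon, gave 0.94 (q = 0.139) and Usp18, a suppressor at the type I receptor, 0.88 (q = 0.0679). In Dapa against Case none of the 33 had a q under 0.05 and 10 had an unadjusted p under 0.05, 4 higher and 6 lower in Dapa, beside 12.9% of all genes.

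In Dapa against Ctrl 14 of the 33 passed, 4 higher and 10 lower, beside 29.1% of all genes. The 4 were Ifnlr1 (1.23, q = 0.00155), Jak3 (0.81, q = 0.0193), Socs6 (0.74, q = 0.0328) and Stat3 (0.54, q = 0.00255). Among the 10 were the kinases Jak1 (-0.33, q = 0.00855) and Tyk2 (-0.31, q = 0.0357), the factors Irf5 (-0.90, q = 0.0229), Irf3 (-0.45, q = 0.0159) and Stat6 (-0.43, q = 0.00763), and Socs7 (-0.33, q = 0.010). Lower too were the phosphatases Ptpn6 and Ptpn2 and the receptor chain Il10rb (-0.47 to -0.32). Ifnlr1 stood at 0.556 to 1.06 FPKM in Ctrl, 0.937 to 1.65 in Case and 1.47 to 2.41 in Dapa, so that all 6 Dapa mice were above all 5 Ctrl mice, beside 14.5% of all genes whose groups did not overlap.

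**Figure D5:**
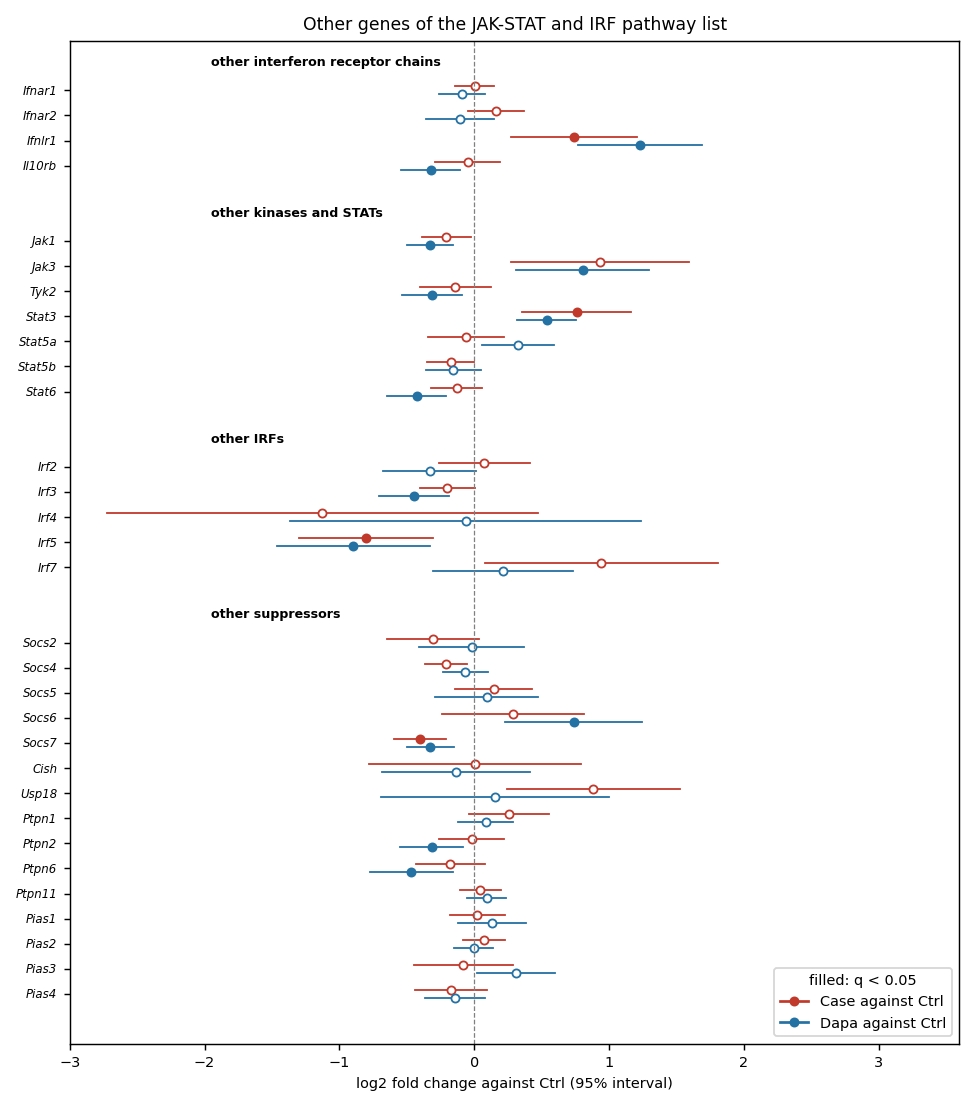
Log2 fold changes with 95% intervals of 31 other pathway genes, against Ctrl, for Case (red) and Dapa (blue); filled points have a q under 0.05. In Case the filled points are Stat3 and Ifnlr1 to the right and Irf5 and Socs7 to the left, and in Dapa 9 of the 13 filled points lie to the left.

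Of the ligands, Ifng itself was barely read. It had 6 reads in Case mouse 3, 4 in mouse 5 and 1 in mouse 4, and 0 in the other 14 mice, where a count of 0 allows up to 3 reads. The 2 mice with most of the 11 reads were those with the highest Irf1 and Stat2. Of the 50-base stretches of Ifng, 19.9% also occur in the overlapping gene model Gm49751, and with so few reads the gene was not tested.

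Known targets of interferon rose in Case as well. Both target lists were chosen with earlier results of these data known, so their counts are no independent support. Of 14 tested genes of an interferon-gamma list 13 rose, beside 6.09% of all genes tested, with a median log2 fold change of 2.94. Those with the smallest p were Cxcl10 (1.76, q = 0.00615), the guanylate-binding Gbp7 (3.81, q = 0.0176) and Iigp1 (5.04, q = 0.0179). The Case mice spread widely: Iigp1 was 2.63 to 541 FPKM (median 84.1), against 2.91 to 5.23 in Ctrl, and Gbp7 was 0.929 to 47.1 FPKM (median 9.87), against 0.504 to 1.82 in Ctrl. Of 15 type I interferon genes 6 rose, with a median of 1.304, and the smallest p were those of Ifit2 (1.64, q = 0.00709), Ifit3 (2.05, q = 0.0113) and Ifit1 (1.43, q = 0.0141). Without Case mice 3 and 5, 5 of the 14 and 3 of the 15 rose, beside 5.79% of all genes in that fit, with medians of 1.89 and 0.56. The 6 genes named, picked by their smallest p with all mice in, still passed (q = 0.00486 for Cxcl10 to 0.0490 for Gbp7). In Dapa against Case none passed, while 12 of 13 and 7 of 15 were lower at a p under 0.05, beside 6.66% of all genes. In Dapa against Ctrl 1 of 14 interferon-gamma genes (Cxcl10, 1.94, q = 0.000583) and 5 of 15 type I genes rose, beside 14.2% of all genes tested, among them Ifit1 (1.32, q = 0.00301), Ifit2 (1.14, q = 0.00376) and Ifit3 (1.21, q = 0.00737).

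Some immediate early genes rose in both diabetic groups against Ctrl. These genes, which respond within minutes to many stimuli and to the handling of tissue, had a summed FPKM over 10 genes of 35.9 to 49.0 in Ctrl, 37.0 to 106 in Case and 58.9 to 120 in Dapa. Of these, 5 of 10 rose in Case against Ctrl (6.09% of all genes) and 8 of 10 in Dapa against Ctrl (14.2% of all genes), among them Junb (1.31, q = 0.00821 and 1.26, q = 0.00054), Egr1 (2.40, q = 0.0182 and 2.35, q = 0.000689) and Fos (2.80, q = 0.0235 and 3.05, q = 0.000727). Without Case mice 3 and 5, 1 of the 9 that could be tested rose in Case, beside 5.79% of all genes in that fit. None of the 10 was at 0 in every mouse of a group, and their part in the level of Socs3 was not tested. In Case mice 5, 4, 3, 1, 6 and 2 the sum was 106, 93.8, 89.7, 69.7, 53.5 and 37.0. Socs3 in the same order was at 0.694, 1.26, 3.08, 2.65, 0.530 and 0.969 FPKM. Among 6 tested inputs to STAT3, Osmr, the oncostatin M receptor, rose in Case (0.85, q = 0.0256) but not in Dapa (-0.12, q = 0.717), each against Ctrl. Il6st, the shared gp130 chain, fell in Case (-0.43, q = 0.0289) and in Dapa (-0.65, q = 0.00272).

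Immune cell markers also differed between mice. The 12 macrophage markers summed to 27.9 to 48.3 FPKM in Ctrl, 29.7 to 209 in Case and 26.4 to 64.2 in Dapa, and 1 of 13 rows tested rose in Case against Ctrl, beside 6.09% of all genes. Case mouse 3 held the 209, of which Lyz2 made 99.3, while Case mouse 5, with the highest Irf8 (5.28), had 32.7, within the range of Ctrl. The 6 neutrophil markers, of which 1 passed the filter on low counts, summed to 0.0718 to 2.35 in Ctrl. In Case they summed to 17.1 in mouse 3 and 14.4 in mouse 1, the 2 mice with the highest Socs3. The other Case mice had 2.69 or less. In Dapa the sums ran from 0.509 in mouse 10, at 1.12 FPKM of Socs3, to 7.79 in mouse 8, at 1.64. Markers of dendritic cells (9 genes, 1.67 to 3.89 over all mice), T and NK cells (12 genes, 0.694 to 4.43) and B and plasma cells (7 genes, 1.35 to 7.13) were low throughout, and only 2 neutrophil markers in Ctrl and 1 in Dapa were at 0 in every mouse of a group. Of 4 dendritic cell markers tested in Case against Ctrl 1 rose, Batf3 (1.51, q = 0.0195), where 13.0% of all genes were called. In Dapa against Ctrl 5 were tested, Batf3 rose (1.45, q = 0.0422) and Clec9a fell (-1.68, q = 0.0289), where 29.1% of all genes were called. Of 2 B and plasma cell markers tested in Case against Ctrl, Jchain fell (-1.57, q = 0.0430). The part of these cells in the levels of Irf8 and Socs3 was not tested. Endothelial markers (8 genes) summed to 64.6 to 111 in Ctrl, 81.8 to 123 in Case and 80.7 to 154 in Dapa.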

How the data were processed

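Per the paper's methods, reads from stranded libraries of whole kidney were aligned to mm10 with HISAT2 and counted per gene with Stringtie. The authors deposited a read count and an FPKM for every gene and mouse. TMM scaling is described for the FPKM, yet count, library total and a common gene length gave each value back within 0.0024% (genes with 100 counts or more), without a TMM factor. Of 22561 genes, 3 with split entries (Sirt1, Tgfb1 and Bmp4) were left out. Groups followed the labels, 1 library per mouse, and no libraries were duplicates.

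The counts were tested with edgeR 4.0.16 under R 4.3.3 (TMM scaling, the filterByExpr filter, two-sided quasi-likelihood test, Benjamini-Hochberg adjustment over all genes tested), each comparison on its own 2 groups. Intervals are 95% intervals of that fit. Alternatives used DESeq2 1.42.0, limma 3.58.1, other scalings, filters and fits. The scripts were tested on simulated data. Likeness was Pearson's r of log2 CPM (prior count 2). The members, the lists and the rule for named genes (members, 7 fixed pathway genes, up to 10 other called pathway genes per comparison, Lepr, and the 3 genes with the smallest p of each target, STAT3 input and immediate early list) were chosen with earlier results of these data known. Socs6, Ptpn2, Lyz2, Batf3, Clec9a, Jchain, Calb1 and Lrp2 were named after their values were seen. Of the 50-base stretches of any member, at most 1.67% occur in other genes (Irf9, in part with Rnf31). Counts over the pathway list cover all its tested genes, of which some are not reported here by name.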

Additional observations from a re-analysis of the deposited data

Results flagged for a closer look

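In 27 combinations of the 9 regulators and 3 groups, 2 held a mouse whose FPKM stood apart from the rest of its group by Dixon's 95% criterion, which chance alone meets in about 1 in 20 groups. Socs1 was at 1.01 FPKM in Dapa replicate 12, from 16 reads. Ifngr2 was at 7.15 FPKM in Ctrl replicate 1, and without that mouse its log2 fold change in Case against Ctrl was 0.046.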

How the results depend on the processing

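In Case against Ctrl, where 2 regulators and 5 genes of the pathway list were called, the number of regulators was 0 with limma on log2(FPKM + 1) or log2(FPKM + 0.1), with voom and quality weights, among the libraries without the FPKM mismatch and without Case mice 3 and 5, and 1 with a term for the 7 mismatch libraries. The number of pathway genes was 9 with DESeq2, 2 and 3 with limma at the pseudocounts of 1 and 0.1, 2 with that term, 0 without the mismatch, 3 without Case mice 3 and 5 and 1 with a fold above 2. Leaving out 1 mouse gave 0 to 3 regulators and 1 to 5 pathway genes. All genes called numbered 1895, and 1219 with the term for the mismatch, 258 without the mismatch, 553 with a fold above 2 and 1002 to 2154 without 1 mouse. With the replicate block the counts were 1 regulator (Irf1), 1 pathway gene and 699 genes, and Ifngr1 was at -0.0054; same-numbered Ctrl and Case mice correlated at -0.059 to -0.013 and none best with its own number, so the numbers only name mice. In Dapa against Case, DESeq2 and the exact test each called 1 regulator and 1 pathway gene, and 202 and 125 genes in all; all 3 groups in one fit called 5 genes, and leaving out 1 mouse 0 to 7, with 0 regulators and 0 pathway genes. In Dapa against Ctrl, with 3 regulators and 14 pathway genes called, the number of regulators was 0 with all 3 groups in one fit, 1 with and 0 without the mismatch, 0 with a fold above 2 and 1 to 4 without 1 mouse, and that of pathway genes 9 with and 0 without the mismatch, 1 with a fold above 2 and 9 to 17 without 1 mouse; all genes called were 4260, 273 without the mismatch, 1051 with a fold above 2 and 3227 to 4690 without 1 mouse.

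Among the regulators and alternatives run, signs turned for Jak2, Ifngr1 and Ifngr2, whose values lay near 0. In Case against Ctrl, Jak2 was 0.0099 without the mismatch. Ifngr1 was -0.0017 with DESeq2, -0.0015 with median ratio scaling, -0.0040 with all 3 groups in one fit, -0.029 with voom, -0.0039 without the mismatch and -0.079 to 0.049 without 1 mouse. Ifngr2 was 0.026 and 0.029 with limma, 0.11 without the mismatch and -0.11 to 0.046 without 1 mouse. In Dapa against Ctrl, Jak2 was 0.016 with upper quartile scaling, 0.072 and 0.078 with limma, 0.0022 with voom, 0.088 without the mismatch and -0.081 to 0.053 without 1 mouse, and Ifngr2 was -0.038 with the mismatch. The comparisons with or without the mismatch hold fewer mice, and the other causes were not tested. Leaving out Case mice 3 and 5 together and comparing within the mismatch classes were chosen after seeing the data. Socs1 had 0 to 43 reads per mouse and varied widely between mice; which of these limits its test was not tested.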
